A study of Mus musculus with 2 samples.

Results

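The cell cycle genes described here are 35 genes of DNA replication and mitosis, matched by symbol to 35 of the 33943 rows of the deposited gene list, with 1 row for each symbol. They were set by name, with earlier results of these data known. They were split into 12 replication members, 21 mitosis members, and Wee1 and Ezh2, which stand in neither list. The data are nuclei of the inguinal mammary fat pad of 8 lactating mice, sequenced as 1 pooled single-nucleus RNA library of 10x Genomics, with a second library of hashtags, DNA barcodes on the nuclei that show from which animal each came. The labels give 4 dams with a floxed oxytocin receptor gene (Oxtr flox) and 4 dams with an adipocyte-specific deletion of Oxtr (OxtrΔAd), from breeding pairs 8 weeks old when caged and kept on standard chow, with tissue taken on postnatal day 11 of the litter and lymph nodes removed. No label names the promoter or Cre line behind the deletion. The hashtags are named WT and Oxtr-KO, and WT was taken as the floxed group because it is the only other genotype in the labels. Litter size is labelled as a batch, with 5 pups in 7 litters and 3 pups in 1, and no litter is tied to an animal, so litter size and animal cannot be told apart.

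Most cells of an adult gland rest outside the cell cycle. A cell that enters it makes cyclin E, loads the ring-shaped MCM helicase on DNA and copies its genome with DNA polymerases. It then makes cyclins A and B and the kinesins, kinetochore proteins and kinases that build the spindle and part the chromosomes. In the mammary gland the secretory alveoli grow mainly in pregnancy, while secretory luminal cells in lactation are mostly differentiated and make milk. Mki67 and Top2a, a protein that coats mitotic chromosomes and an enzyme that untangles DNA, are the usual marks of dividing cells. A nucleus in which replication or mitosis is under way is thus known to hold transcripts of many of these genes at once, and the number of different members detected in each nucleus is the main measure below.

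The promoters of the members are shown because genes of each phase are known to share short motifs. RefSeq promoters on GRCm38.p6, from 250 bases before to 50 after the transcription start, matched 28 of the 35 members, and Wee1, Tpx2, Smc4, Ccna2, Mcm4, Ccne2 and Aurkb had no entry. The motifs searched on both strands were CCAAT (bound by NF-Y), TTTGAA or TTTAAA (the CHR element of mitosis genes) and TTTCCCGC, TTTCGCGC, TTTGGCGC or TTTGCCGC (an E2F site). The next lines give the 150 bases before the start, read 5′ to 3′ toward the gene, with these motifs in capitals. They hold 3 mitosis genes of the cell division machinery and of the mitotic cyclin kinase (Top2a, Cdk1, Ccnb1), 2 mitosis members with the most UMIs in secretory nuclei (Spc25, Mki67) and 2 replication genes whose values by animal are given below (Mcm6, Pola1). In the order of the lines the stretches lie at chr11:99024190-99024339 (minus strand), chr10:69352913-69353062 (minus strand), chr13:100786487-100786636 (minus strand), chr2:69206214-69206363 (minus strand), chr7:135716380-135716529 (minus strand), chr1:128359706-128359855 (minus strand) and chrX:93632156-93632305 (minus strand).
Top2a: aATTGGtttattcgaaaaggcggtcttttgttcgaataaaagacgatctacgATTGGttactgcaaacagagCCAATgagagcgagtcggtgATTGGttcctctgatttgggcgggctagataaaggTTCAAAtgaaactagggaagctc
Cdk1: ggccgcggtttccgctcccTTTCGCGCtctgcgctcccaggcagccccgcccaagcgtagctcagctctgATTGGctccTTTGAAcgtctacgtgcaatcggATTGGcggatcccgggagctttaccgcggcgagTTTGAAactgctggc
Ccnb1: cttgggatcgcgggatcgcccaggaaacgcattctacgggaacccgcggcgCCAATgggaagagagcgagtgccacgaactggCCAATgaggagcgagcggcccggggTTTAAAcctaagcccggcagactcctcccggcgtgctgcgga
Spc25: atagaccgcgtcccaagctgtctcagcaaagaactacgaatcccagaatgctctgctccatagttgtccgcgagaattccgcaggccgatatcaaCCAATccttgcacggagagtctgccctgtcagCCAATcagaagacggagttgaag
Mki67: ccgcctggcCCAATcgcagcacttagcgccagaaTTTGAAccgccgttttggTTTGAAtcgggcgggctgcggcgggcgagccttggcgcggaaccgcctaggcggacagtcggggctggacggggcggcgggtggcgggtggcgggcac
Mcm6: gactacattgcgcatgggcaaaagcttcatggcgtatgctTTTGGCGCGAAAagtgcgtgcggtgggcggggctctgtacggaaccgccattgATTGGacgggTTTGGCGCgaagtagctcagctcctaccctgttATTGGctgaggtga
Pola1: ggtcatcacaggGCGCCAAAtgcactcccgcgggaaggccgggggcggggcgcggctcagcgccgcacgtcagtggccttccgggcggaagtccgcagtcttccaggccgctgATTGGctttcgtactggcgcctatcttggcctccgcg
The stretch before Top2a holds 4 CCAAT motifs and 1 CHR, and that before Cdk1 holds 2 CCAAT, 2 CHR and 1 E2F motif. Spc25 and Ccnb1 each have 2 CCAAT motifs with starts 32 bases apart, and Mcm6 has 3 E2F motifs, of which the first pair overlap. In the full windows of 300 bases, a CHR motif was present in 15 of 17 mitosis promoters (88.2%), 4 of 10 replication promoters (40.0%) and 27.6% of all 32851 RefSeq promoters. An E2F motif was present in 1 of 17 mitosis promoters (5.88%), 5 of 10 replication promoters (50.0%) and 2.26% of all. CCAAT was present in 15 of 17 (88.2%), 9 of 10 (90.0%) and 37.4%. Spc25, whose values stand apart from those of other mitosis genes below, thus carries the paired CCAAT letters that Ccnb1 has. These matches describe letters only.

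Nuclei were assigned to animals by hashtag and to cell types by marker genes, with the 35 members and 70 other genes of the pathway left out of the clustering, so that the types were not formed from the genes described. The 8 animals gave 12998 assigned nuclei, 1246 to 2013 per animal, with a median of 4297 to 5657 UMIs (unique molecular identifiers, each counting 1 captured RNA molecule) per nucleus. Secretory luminal nuclei made up 9787 of them. Myoepithelial (968), fibroblast (662), adipocyte (374), macrophage (356), luminal progenitor (188), vascular endothelial (145) and T and NK nuclei (138) were the other types with at least 100 assigned nuclei. The T and NK cluster also carried 6 plasma cell markers beside its 6 own, and T and NK below stands for that mixture. A cluster of 308 assigned nuclei led by mitochondrial genes was left unnamed and unused. Levels are given as CPM, the UMIs of a gene per 1e6 UMIs of the same nuclei, with no correction for gene length. Oxtr itself was near its floor in adipocyte nuclei, where it had 1 UMI in each WT animal and 4, 6, 5 and 4 UMIs in the 4 animals labelled knockout (5.07 ± 0.862 against 16.8 ± 3.28 CPM, SD, n = 4 each). That direction goes against the label, and whether these reads lie in the deleted part is not known, so the animals are called labelled knockout throughout. In myoepithelial nuclei, where Oxtr is known to act, it was at 177 to 231 CPM in WT and 152 to 201 in the labelled knockout animals.

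At least 3 members were detected in 1893 of 9787 secretory luminal nuclei, 19.3% (95% exact binomial interval 18.6 to 20.1%). Most of these detections came from a few genes. Of the 22183 member UMIs in secretory nuclei, 83.8% came from 6 genes: Ezh2, Spc25, Mki67, Smc4, Wee1 and Mcm7. Ezh2, the methyltransferase of the Polycomb complex that silences chromatin, alone gave 43.2% and was detected in 52.4% of secretory nuclei. These 6 lay at 20.5 CPM or more and the other 29 at 6.52 CPM or less.  The same 6 were found in every type, but they were not the most abundant members in each. In adipocyte nuclei Pola1 was at 35.2 CPM, above Spc25 (14.3), Mki67 (11.2) and Wee1 (5.10 CPM). Ezh2 had 82.6 CPM in adipocyte nuclei, which are known to be non-dividing, and Mcm7, a subunit of the MCM helicase, had 44.8 CPM there against 20.5 CPM in secretory nuclei. In the mouse annotation 17 of the 35 members overlap another gene, 13 of them one on the other strand. Mki67, Wee1, Ezh2, Mcm7 and Smc4 are among the 17 and Spc25 is not. No source used here says whether counting used strand, so the levels of those 13 are uncertain to that extent. Smc4 overlaps genes on its own strand only, which strand cannot tell apart.

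**Figure D1:**
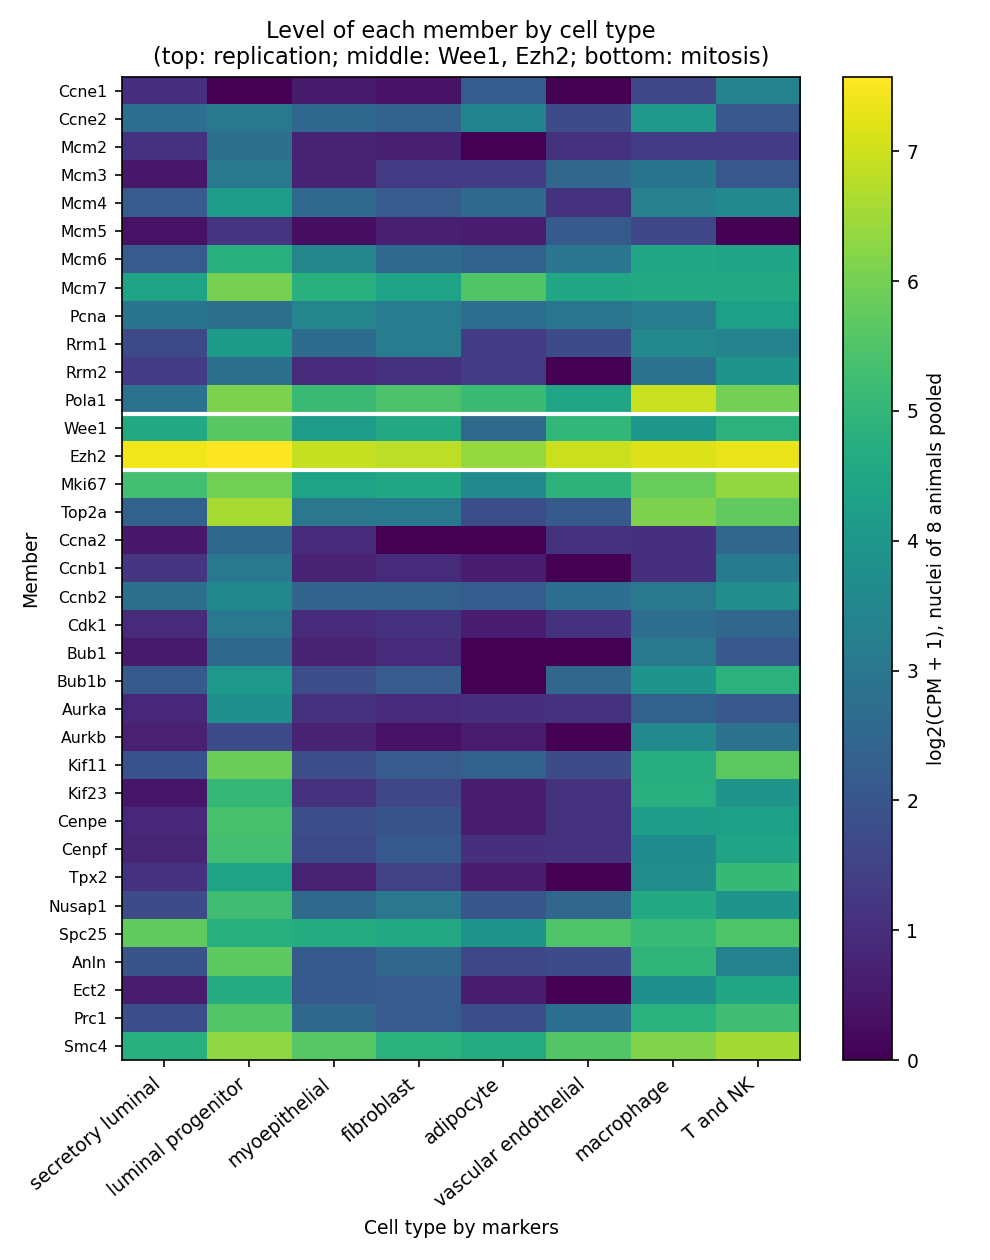
Level of each of the 35 members (rows) in the nuclei of 8 cell types (columns), as log2(CPM + 1) with the nuclei of 8 animals pooled. Ezh2 is bright in every column, from 82.6 CPM in adipocyte to 190 CPM in luminal progenitor nuclei, while Top2a is at 94.8 CPM in luminal progenitor and 4.06 CPM in secretory nuclei.

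Members that mark the act of division were low in secretory nuclei. Top2a was at 4.06 CPM there (228 UMIs), at 94.8 in luminal progenitor, 68.0 in macrophage and 51.5 in T and NK nuclei, and at 2.55 to 7.31 CPM in adipocyte, vascular endothelial, myoepithelial and fibroblast nuclei. Over the 8 animals the Top2a level was 4.45 ± 2.91 CPM in secretory and 126 ± 96.3 in luminal progenitor nuclei (SD, n = 8), and the ranges, 0.719 to 9.44 and 17.7 to 256 CPM, did not overlap. Macrophage nuclei ranged from 7.03 to 132 CPM and T and NK nuclei from 16.0 to 131, so the order among these 3 types did not exceed the spread over animals. Cenpe, a kinesin of the kinetochore, was also highest in luminal progenitor nuclei, with 40.3 CPM there, 18.7 in T and NK, 17.6 in macrophage and 0.784 in secretory nuclei. Kif11, the kinesin that pushes spindle poles apart, was at 58.0, 49.9, 25.4 and 2.78 CPM in these types. Of the 35 members, 20 were highest in luminal progenitor, 9 in T and NK and 4 in macrophage nuclei.

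Spc25, a subunit of the NDC80 complex that ties kinetochores to microtubules, was the one member highest in secretory nuclei when animals were pooled. Its level over animals was 56.0 ± 24.7 CPM in secretory, 41.1 ± 26.2 in vascular endothelial and 37.7 ± 41.6 in T and NK nuclei (SD, n = 8). It was 24.6 ± 15.4 in myoepithelial, 22.0 ± 8.12 in fibroblast and 13.5 ± 11.8 in adipocyte nuclei. Neighbours among these listed types overlapped. Luminal progenitor and macrophage nuclei are not in this list. They held 2.36 and 1.66 Mki67 UMIs per Spc25 UMI, against 1.82 in T and NK and 0.755 in secretory nuclei. T and NK nuclei of labelled knockout animal 1, at 124 CPM, lay above the secretory nuclei of every animal. Mki67 was at 39.0 ± 9.45 CPM in secretory nuclei, below T and NK (80.9 ± 76.6), luminal progenitor (74.5 ± 47.6) and macrophage nuclei (52.3 ± 25.0), also with overlap. The ratio of Mki67 to Top2a UMIs was 9.59 in secretory nuclei, 0.650 in luminal progenitor, 0.809 in macrophage and 1.55 in T and NK nuclei. It was 8.33 in vascular endothelial nuclei (25 and 3 UMIs), 4.40 in adipocyte, 3.04 in fibroblast and 2.84 in myoepithelial nuclei. Pola1, the catalytic subunit of DNA polymerase alpha, went the other way from Spc25, with 6.13 CPM in secretory and 120 CPM in macrophage nuclei. Across the 8 types, on log2(CPM + 1), Top2a was most like Cenpe (Pearson r = 0.991), Kif23 (0.987) and Cdk1 (0.985) and unlike Spc25 (0.163). The types share a library and differ in depth, so these r values over 8 points are a description.

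Members were then counted within nuclei. Of secretory nuclei holding a UMI of Bub1, a spindle checkpoint kinase, 59.1% (13 of 22) also held 5 or more other members. The share was 55.6% for Cenpe, 60.0% for Mcm5 and 23.0% for Top2a. It was 2.55% for Spc25 (55 of 2158), 2.97% for Mki67, 2.92% for Mcm7 and 1.39% for Ezh2. Against this stood 1.65% of the nuclei without Top2a and 0.773% of those without Spc25. Most secretory nuclei with a UMI of Bub1 or Cenpe thus held 5 or more other members, and few of those with a UMI of Spc25 or Ezh2 did.

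The number of members per nucleus had a long thin tail, drawn in the plot of members detected per nucleus. A threshold of 8 or more, set after the distribution was seen, marked 110 of 12998 assigned nuclei. There were 9 secretory nuclei with 7 members and 7 with 8, and the highest secretory nucleus held 26. By this threshold 34 of 9787 secretory nuclei (0.347%, exact interval 0.241 to 0.485%) were in the tail. It took 15 of 188 luminal progenitor (7.98%, 4.53 to 12.8%), 31 of 356 macrophage (8.71%, 5.99 to 12.1%) and 14 of 138 T and NK nuclei (10.1%, 5.66 to 16.4%). It took 4 of 968 myoepithelial (0.413%), 6 of 662 fibroblast (0.906%), 4 of 374 adipocyte (1.07%) and 0 of 145 vascular endothelial nuclei, where 0 allows a share of up to 2.07%. Intervals cover counting error only. Luminal progenitor and macrophage nuclei lay above secretory nuclei in 8 of 8 animals, and T and NK nuclei in 7 of 8.

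**Figure D2:**
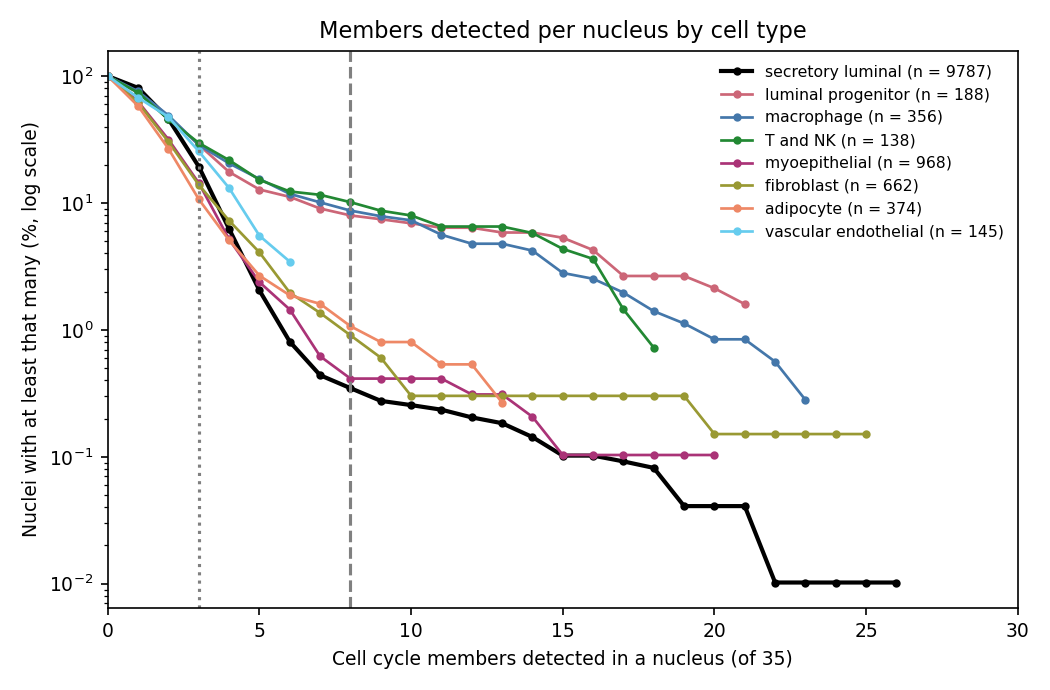
Share of nuclei (%, log scale) in which at least the given number of the 35 members was detected, by cell type, with nuclei of 8 animals pooled. The dotted line is at 3 and the dashed line at 8 members, where secretory nuclei have fallen to 0.347% and macrophage, luminal progenitor and T and NK nuclei lie between 7.98 and 10.1%.

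The tail nuclei were checked with 40 other replication and mitosis genes that were not used to count members. Secretory tail nuclei held a median of 13 of these 40 genes and 2960 CPM in sum, while secretory nuclei with 3 to 7 members held a median of 1 and 142 CPM, and those with 0 to 2 members a median of 0 and 132 CPM. The median depth of these 3 groups was 6710, 6497 and 5052 UMIs. In luminal progenitor tail nuclei the median was 17 of 40 genes, and in macrophage tail nuclei 13. Secretory tail nuclei kept most of the sum of their own secretory markers, 21476 CPM against 29856 CPM in nuclei with 0 to 2 members. At least 3 of the 40 genes were found in 3.07% of secretory nuclei with 0 to 2 members, 7.85% of those with 3 to 7 and 91.2% of those with 8 or more.

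The tail nuclei of other types did not all look alike. The 4 adipocyte tail nuclei had a median of 19013 UMIs against 4264 in adipocyte nuclei with 0 to 2 members, a median doublet score of 0.182 by Scrublet against 0.0226, and 4384 CPM of adipocyte markers against 14937. The 6 fibroblast tail nuclei had a median of 13700 UMIs against 3396, and a score of 0.147. Secretory and luminal progenitor tail nuclei scored 0.0571 and 0.0478. Macrophage tail nuclei had a median of 6416 UMIs against 3148 in those with 0 to 2 members, and a score of 0.0740 against 0.0247. Their macrophage markers were at 1032 against 2955 CPM. T and NK tail nuclei had 7160 against 2279 UMIs, a score of 0.0653 against 0.0348, and 437 against 1392 CPM of T and NK markers. Luminal progenitor tail nuclei had 5186 against 3590 UMIs and 802 against 968 CPM of their own markers. The part of doublets in the tail of any type was not tested.

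The lists hold 12 replication and 21 mitosis members, so more mitosis than replication UMIs were found in many nuclei below the tail too. In secretory nuclei mitosis UMIs were the more numerous in 2803 and replication UMIs in 940 of the 7894 nuclei with 0 to 2 members, and in 1204 and 244 of the 1859 with 3 to 7. Mitosis UMIs outnumbered replication UMIs in 30 of the 34 secretory tail nuclei, in 13 of 15 luminal progenitor, in 26 of 31 macrophage and in 14 of 14 T and NK tail nuclei. Within the secretory tail, Smc4, a condensin that compacts chromosomes, was found in 29 of 34 nuclei. Ezh2 was found in 28, Mki67 and Top2a in 27 each, Pola1 in 23, and Prc1, a bundler of midzone microtubules, in 19. Ccne1, a cyclin of replication start, was found in 2. Below the tail Top2a was in 1.24% of secretory nuclei and Pola1 in 2.07%, against 17.7% for Mki67 and 21.9% for Spc25. Summed over all nuclei with all members, replication UMIs per mitosis UMI were 0.354 in secretory, 0.332 in luminal progenitor, 0.491 in macrophage and 1.54 in adipocyte nuclei. Without the 6 members picked by their level in secretory nuclei, these ratios were 1.01, 0.315, 0.666 and 2.91.

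Each nucleus was then thinned to 1500 UMIs to set unequal depth aside. The share with 3 or more members became 1.25% in secretory nuclei (122 of 9776), 11.96% in luminal progenitor, 10.4% in macrophage and 13.4% in T and NK nuclei, and 0.539% in adipocyte nuclei. Nuclei below 1500 UMIs were left out, 11 of them secretory, 3 adipocyte, 4 luminal progenitor, 21 macrophage and 26 T and NK. Unthinned, the shares were 28.7% in luminal progenitor, 28.7% in macrophage, 29.7% in T and NK and 10.7% in adipocyte nuclei, the last at a median of 4395 UMIs against 5275 in secretory nuclei. Adipocyte nuclei with 3 to 7 members had a median Scrublet score of 0.166 against 0.0226 in those with 0 to 2, and 7837 against 14937 CPM of adipocyte markers, and the part of doublets in this share was not tested. The secretory share lay above the adipocyte share in 8 of 8 animals. The 6 abundant members were picked by their level in secretory nuclei, which tilts a comparison without them against the secretory share. With these 6 left out the shares were 0.817% in secretory and 2.14% in adipocyte nuclei, and the adipocyte share was the higher one in 6 of 8 animals. Fibroblast and myoepithelial shares, each above the secretory share in 1 of 8 animals with all members, were then above it in 6 of 8. For at least 2 replication members the adipocyte share, 9.89% against 2.95%, was the higher one in 8 of 8 animals.

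The genotypes were compared over animals. In secretory nuclei, 3 or more members were detected in 15.2, 12.7, 11.3 and 27.8% of nuclei in WT animals 1 to 4, and in 24.8, 24.4, 23.8 and 20.6% in labelled knockout animals 1 to 4. WT animals 1 to 3 lay below every labelled knockout animal, and WT animal 4 above all of them, so the groups overlapped. The means were 16.7 ± 7.53% and 23.4 ± 1.93% (SD, n = 4 each), a difference of 6.66 percentage points, within the WT spread. No test was run on this share. Without WT animal 4 the difference was 10.3 points. After thinning to 1500 UMIs the means were 0.625 ± 0.514% and 2.11 ± 1.05%, with overlap.

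**Figure D3:**
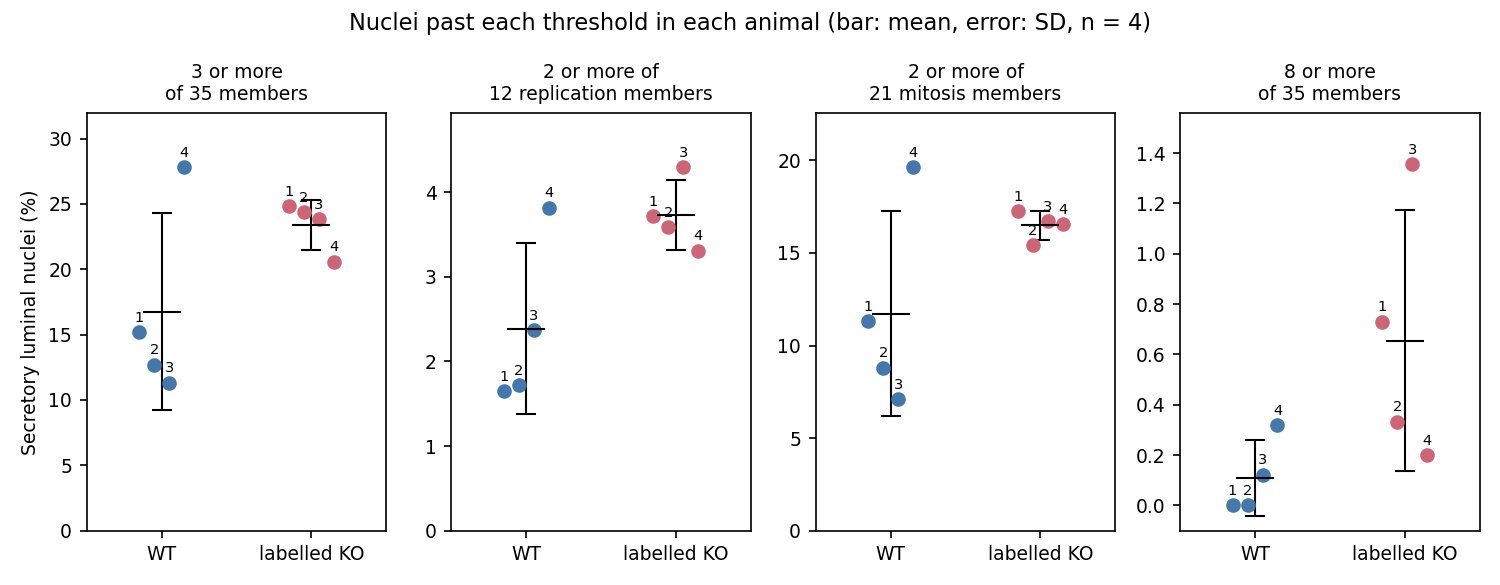
Share of secretory luminal nuclei (%) past 4 thresholds in each of 4 WT and 4 labelled knockout animals, with points numbered by animal, the mean as a bar and the SD as the error. In the first 3 panels WT animals 1 to 3 lie below every labelled knockout animal and WT animal 4 lies among or above them.

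At least 2 replication members were found in 1.65, 1.72, 2.37 and 3.82% of secretory nuclei in the WT animals and in 3.72, 3.59, 4.29 and 3.31% in the labelled knockout animals. At least 2 mitosis members were found in 11.3, 8.81, 7.11 and 19.6% and in 17.3, 15.4, 16.7 and 16.5%. WT animal 4 stood with the labelled knockout animals in both lists. The differences of the means were 1.34 points for replication and 4.78 points for mitosis. The tail of 8 or more members held 0, 0, 2 and 3 nuclei in the WT animals and 11, 4, 12 and 2 in the labelled knockout animals, 5 of 5200 against 29 of 4587 secretory nuclei. In percent these were 0 to 0.318 and 0.201 to 1.36, and the groups overlapped. In macrophage nuclei the tail held 7, 3, 5 and 2 WT nuclei and 1, 9, 1 and 3 labelled knockout nuclei, and in luminal progenitor nuclei 2, 2, 3 and 1 against 1, 2, 2 and 2.

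Each member was tested with edgeR on UMIs summed per animal. In secretory nuclei 19 of the 35 members passed the filter on low counts, and 0 were called at an adjusted p under 0.05, where 0% of all 12846 genes tested were called. At an unadjusted p under 0.05 there were 1092 genes, and DESeq2 called 29 (0.226%), with no member among them. The 16 members not tested, among them Cdk1, Cenpe and Bub1, had 16 to 88 secretory UMIs in all 8 animals. Of the 19 tested, 18 lay higher in the labelled knockout animals, with a median log2 fold change of 0.51, where 48.3% of all genes tested were higher and their median was -0.01. A member can pass the filter through the group where it is high, and the members were chosen with earlier results of these data known. This count is thus a description of those that passed. All 35 without a filter gave 34 with a higher mean plain CPM in the labelled knockout animals and 1, Aurka, with a lower one. Pcna, lower by edgeR (log2 -0.05), counts among the 34 by a plain CPM of 6.59 against 6.57 in WT. The share of all genes higher in plain CPM was not computed. In edgeR with no filter it was 49.9% of 23892 genes.

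**Figure D4:**
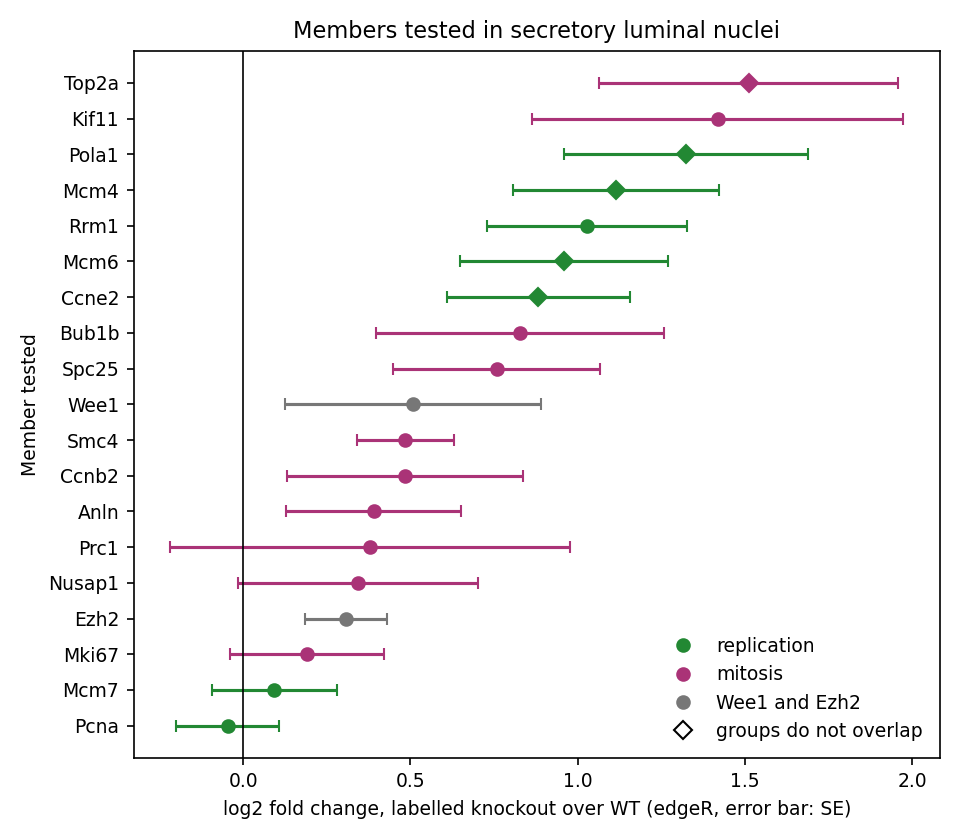
The log2 fold change of labelled knockout over WT animals with its standard error (edgeR) for the 19 members tested in secretory nuclei, coloured by phase, with diamonds where all 4 labelled knockout animals lie above all 4 WT animals. Values run from -0.05 for Pcna to 1.51 for Top2a, and none passed the adjusted threshold.

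Replication members are taken first. Pola1 was at 4.35, 2.03, 5.70 and 2.15 CPM in WT animals 1 to 4 and at 9.77, 7.15, 13.9 and 5.99 CPM in labelled knockout animals 1 to 4 (TMM-scaled, as are the values by animal that follow). All labelled knockout animals lay above all WT animals, with a log2 fold change of 1.32 (SE 0.37, edgeR adjusted p = 0.543). Mcm4, a subunit of the MCM helicase, was at 2.45, 1.39, 2.52 and 3.05 CPM in WT and at 4.37, 4.09, 7.99 and 4.12 CPM in the labelled knockout animals. These groups also stood apart, with a log2 fold change of 1.11 (SE 0.31, adjusted p = 0.543). Mcm6, of the same helicase, was at 2.45, 2.03, 3.07 and 2.51 CPM and at 4.48, 3.79, 8.41 and 3.37 CPM. Ccne2, a cyclin E, was at 2.04, 4.43, 4.94 and 5.56 CPM and at 8.85, 6.13, 7.57 and 8.61 CPM. For both genes the lowest labelled knockout animal lay above the highest WT animal, with log2 fold changes of 0.96 and 0.88.

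Rrm1, the large subunit of ribonucleotide reductase, which supplies deoxynucleotides, was at 1.09, 1.52, 1.10 and 2.51 CPM in WT and 3.10, 3.21, 3.58 and 2.43 CPM in the labelled knockout animals, and only WT animal 4 and labelled knockout animal 4 crossed. The 2 replication members of the largest p, named after their values were seen, were Pcna and Mcm7. Pcna, the sliding clamp of DNA polymerase, was at 6.25 to 7.21 CPM in WT and 5.69 to 7.36 CPM in the labelled knockout animals. Mcm7 was at 16.7 to 27.6 and 16.0 to 24.8 CPM, so both overlapped widely. The 7 tested replication members thus had log2 fold changes from -0.05 to 1.32, and differences between members were not tested. All animals of the labelled knockout lay above all WT animals in 5 of the 19 tested members, the 4 above and Top2a, against 2% of all genes tested.

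Among mitosis members, Top2a was at 3.13, 0.760, 1.21 and 4.31 CPM in WT animals and at 7.24, 5.11, 8.62 and 4.68 CPM in the labelled knockout animals. The groups did not overlap, by a narrow margin at WT animal 4, and the log2 fold change was 1.51 (SE 0.45, adjusted p = 0.543). Kif11 was at 0.680, 1.52, 0.987 and 3.59 CPM and at 5.40, 2.63, 7.57 and 1.68 CPM, with overlap. Bub1b, the checkpoint protein BubR1, was at 1.22, 1.77, 2.41 and 5.02 CPM and at 4.02, 3.65, 7.57 and 2.99 CPM, again with WT animal 4 inside the other group. Smc4 was at 19.7, 20.3, 21.7 and 29.1 CPM and at 30.8, 31.2, 36.6 and 28.1 CPM. Mki67 was at 56.3, 27.2, 28.4 and 35.2 CPM and at 49.2, 41.7, 32.2 and 44.0 CPM, with a log2 fold change of 0.19 (SE 0.23, adjusted p = 0.827) and overlapping groups. At an unadjusted p under 0.05 and higher in the labelled knockout animals were 10 of the 19 members and 4.32% of all genes tested. Like the other counts of members set against all genes, this describes a list chosen with earlier results of these data known.

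**Figure D5:**
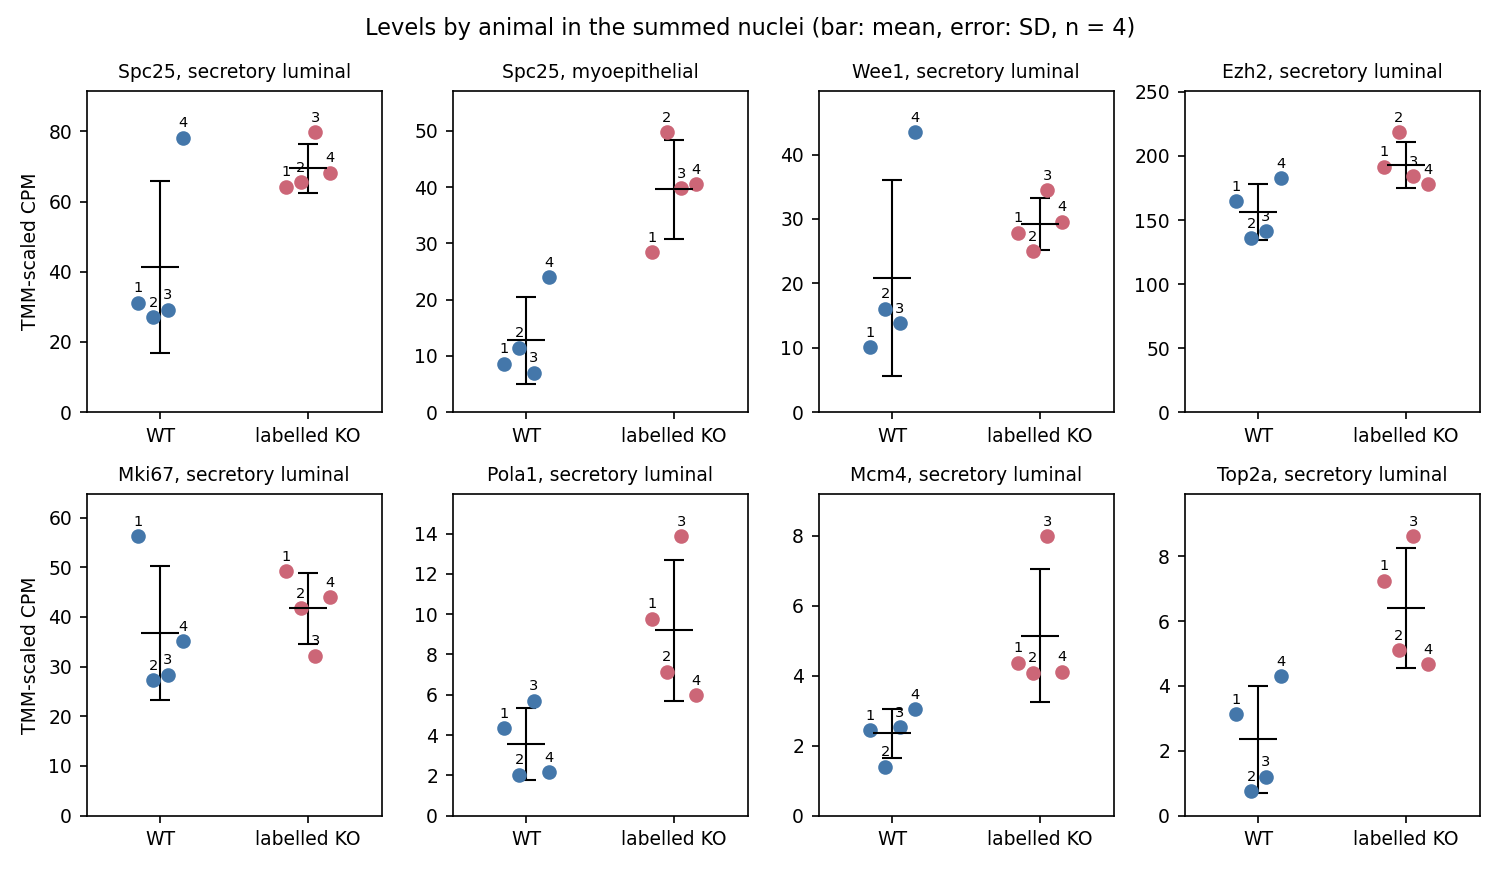
TMM-scaled CPM in each of 4 WT and 4 labelled knockout animals for Spc25, Wee1, Ezh2, Mki67, Pola1, Mcm4 and Top2a in secretory nuclei and Spc25 in myoepithelial nuclei, with the mean as a bar and the SD as the error. For Spc25 in secretory nuclei WT animals 1 to 3 lie at 27.0 to 31.2 CPM and the other 5 animals at 64.3 to 79.7 CPM.

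Part of these differences sat in the few tail nuclei. Of the 164 Top2a UMIs of labelled knockout secretory nuclei 77 came from the 29 tail nuclei, and of 64 in WT animals 9 came from 5. Without the tail nuclei, a choice made after the data were seen that removes nuclei by the members themselves, mean Top2a (as plain CPM) was 1.99 ± 1.39 and 3.32 ± 0.975 CPM and the groups overlapped. Pola1 was then 3.32 ± 1.71 and 6.18 ± 1.35 CPM, with overlap. Mcm4 (2.34 ± 0.781 and 4.80 ± 1.79), Mcm6 (2.46 ± 0.443 and 4.43 ± 1.89) and Ccne2 (4.15 ± 1.60 and 7.09 ± 1.17 CPM) still had no overlap. Over all 35 members, the mean was higher in the labelled knockout animals in 34 with and 29 without the tail nuclei. The 6 that were lower without them were Bub1, Aurka, Kif23, Nusap1, Prc1 and Pcna.

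Spc25 UMIs lay mostly outside the tail, which held 50 of the 1752 found in labelled knockout animals. It was at 31.2, 27.0, 29.2 and 78.2 CPM in secretory nuclei of WT animals 1 to 4 and at 64.3, 65.5, 79.7 and 68.3 CPM in the labelled knockout animals. The first 3 WT animals lay close together at less than the level of every other animal, and WT animal 4 lay with the labelled knockout group. The log2 fold change was 0.76 (SE 0.31, edgeR adjusted p = 0.568). Without WT animal 4 it was 1.25 (SE 0.12, adjusted p = 0.0149), and Spc25 was the one member called among 13185 genes, of which 0.205% were called. Leaving out an animal after its values were seen to stand apart is no independent test.

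Wee1, the kinase that holds Cdk1 off until mitosis, had the same pattern by animal, with 10.1, 16.1, 13.8 and 43.4 CPM in WT and 27.8, 25.0, 34.5 and 29.6 CPM in the labelled knockout animals. WT animal 4 had the highest level of all 8. Its log2 fold change was 0.51 (SE 0.38, adjusted p = 0.716), and 1.12 without WT animal 4 (adjusted p = 0.0523). Ezh2 was at 165, 136, 141 and 183 CPM and at 192, 218, 184 and 178 CPM, with a log2 fold change of 0.31 (SE 0.12, adjusted p = 0.566) and overlap at WT animal 4 again.

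In each finer group of secretory nuclei, those of WT animals 1 to 3 with a Spc25 value lay below every labelled knockout animal with one. At a Leiden resolution of 1.0, with members left out of the clustering, secretory nuclei formed 6 clusters of over 500 assigned nuclei. Those led by mt-Cytb and by Scd3 got no cell type name at this resolution. In the cluster led by C2cd4b, Spc25 was at 28.5, 22.2 and 27.5 CPM in WT animals 1 to 3 and at 64.4, 60.2 and 74.8 CPM in labelled knockout animals 1, 2 and 4. In the cluster led by Gm43305 it was at 30.9 and 30.8 CPM in WT animals 2 and 3, 78.5 in WT animal 4, and 50.3 to 102 CPM in the labelled knockout animals. In the cluster led by Adamts5 it was at 19.9 to 30.6 CPM in WT animals 1 to 3 and at 62.1 to 79.0 CPM in labelled knockout animals 1, 2 and 4. Animals with under 50 nuclei in a cluster are not given. In the cluster led by Scd3 only animal 3 of WT animals 1 to 3 had a value, 38.1 CPM. There 635 of 1367 nuclei came from labelled knockout animal 3. The clusters held unequal shares of the animals, and the split by animal stood within them as well as between them.

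In myoepithelial nuclei, the contractile cells that oxytocin is known to act on, Spc25 was at 8.58, 11.4, 7.01 and 24.0 CPM in WT and at 28.4, 49.7, 39.8 and 40.5 CPM in the labelled knockout animals. Every labelled knockout animal lay above every WT animal, as for 2.29% of the 7031 genes tested, and WT animal 4 was again the highest of its group. The log2 fold change was 1.67 (SE 0.35, edgeR adjusted p = 0.158), and it was not called, where 0.0142% of genes were. It was called with no filter on low counts (1.69, adjusted p = 0.00127, with 0.295% of 20335 genes called) and without WT animal 4 (2.13, adjusted p = 0.0222, with 0.109% called), and also with animals blocked by their number (1.62, adjusted p = 0.0420, with 0.156% called). Secretory nuclei of the same animals held more Spc25, 31.2, 27.0, 29.2 and 78.2 CPM in WT and 64.3 to 79.7 CPM in the labelled knockout animals. WT animal 4 was the highest of its group in both types. The part of free RNA from secretory nuclei in the myoepithelial values was not tested. Ezh2, the member of next smallest p, was at 126, 103, 108 and 87.3 CPM and at 142, 177, 119 and 126 CPM, with overlap (log2 0.42, adjusted p = 0.594). In fibroblast nuclei Spc25 was at 20.9, 12.6, 29.2 and 19.9 CPM in WT and 29.6, 38.0, 26.2 and 13.9 CPM in the labelled knockout animals, with a log2 fold change of 0.40 (adjusted p = 1.00) and wide overlap.

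No member was called in the other types, and few could be tested. There were 6 tested members in myoepithelial, 6 in fibroblast (0% of 6419 genes called), 5 in macrophage (0% of 4620), 2 in adipocyte (0.0247% of 4045), 2 in luminal progenitor (0% of 2180) and 1 each in T and NK (0% of 1482) and vascular endothelial nuclei (0% of 1867). Their smallest adjusted p outside myoepithelial nuclei was 0.772, for Mcm7 in adipocyte nuclei (42.6 ± 17.6 and 59.9 ± 15.5 CPM, SD, n = 4 each). Ezh2 in adipocyte nuclei was at 62.0, 75.5, 112 and 73.4 CPM in WT and 116, 108, 129 and 64.6 CPM in the labelled knockout animals, with overlap. Mcm7 there was at 25.9, 34.3, 43.6 and 66.8 CPM and 49.7, 52.4, 54.6 and 83.0 CPM, also with overlap. In luminal progenitor nuclei Top2a was at 74.5, 336, 83.9 and 270 CPM in WT and 240, 320, 23.4 and 36.3 CPM in the labelled knockout animals, so animals within a group were as far apart as 23.4 and 320 CPM. Ezh2 in luminal progenitor nuclei was at 287, 273, 273 and 147 CPM and 240, 247, 320 and 190 CPM, with overlap (log2 -0.01). In macrophage nuclei Top2a was at 109, 47.4, 151 and 39.3 CPM and 42.4, 149, 8.01 and 53.1 CPM, also without a split by genotype. Ezh2, the member of smallest p in macrophage nuclei, was at 134, 134, 131 and 157 CPM and 187, 256, 200 and 106 CPM, with labelled knockout animal 4 below every WT animal (log2 0.43, adjusted p = 0.812). Mki67 in macrophage nuclei was at 70.3, 38.8, 60.5 and 52.3 CPM and 50.9, 124, 32.1 and 53.1 CPM (adjusted p = 0.920). Ezh2 was the one member tested in T and NK (216, 269, 129 and 213 against 281, 289, 227 and 263 CPM) and vascular endothelial nuclei (24.3, 107, 155 and 185 against 223, 177, 168 and 282 CPM), with overlap in both. In fibroblast nuclei the member of smallest p was Smc4, at 18.8, 12.6, 29.2 and 19.9 CPM and 37.0, 24.6, 45.2 and 44.4 CPM, with overlap (log2 0.89, adjusted p = 1.00).

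Of the 70 other pathway genes, 44 were tested in secretory nuclei and 0 were called, with 27 higher and 17 lower in the labelled knockout animals and a median log2 fold change of 0.17. By role, 9 of 12 tested genes of other replication factors were higher, 6 of 10 of other mitosis factors, 4 of 8 of the Rb and E2F group and 2 of 4 kinase inhibitors. Dtl, which marks the licensing factor Cdt1 for destruction in S phase, was at 1.63, 1.65, 1.10 and 1.61 CPM in WT and 4.37, 3.94, 7.36 and 4.12 CPM in the labelled knockout animals, without overlap (log2 1.71, adjusted p = 0.452). Fen1, the nuclease that trims Okazaki fragments, was at 5.03, 4.05, 3.95 and 6.998 CPM and 16.7, 7.74, 24.6 and 12.3 CPM, without overlap (log2 1.62, adjusted p = 0.505). WT animal 4 lay with its own group in Dtl, Mcm4, Mcm6 and Pola1, and with the other group in Spc25, Wee1 and Kif11. The 2 of the smallest p among those lower were Lin37, of the DREAM complex that represses cell cycle genes, and E2f3, a factor that activates them. Lin37 was at 7.35, 8.11, 7.02 and 8.25 CPM and 8.05, 6.13, 6.10 and 5.43 CPM, with overlap (log2 -0.24, adjusted p = 0.700). E2f3 was at 35.6, 36.9, 41.6 and 33.4 CPM in WT and 37.5, 27.0, 36.8 and 29.4 CPM in the labelled knockout animals, with overlap (log2 -0.18, adjusted p = 0.717).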

How the data were processed

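Per the labels, nuclei of 8 dams were marked by hashtags, pooled and sequenced as 1 mRNA library with 1 hashtag library. The authors deposited raw counts of UMIs per gene and barcode, whole numbers, made with fastp and Cell Ranger 7.2.0 on GRCm39, per the submitters' processing notes. The matrix held 107910356 UMIs in 21805 barcodes, a median of 4212 each, and its barcodes were matched to those of the hashtag counts.

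Animals were called with HTODemux (Seurat 5.3.0, R 4.3.3, 9 hashtags, quantile 0.99). Barcodes with at least 500 UMIs, 300 genes and under 5% mitochondrial UMIs were kept (20854, with 951 removed). Of these, 12998 were assigned to animals, 1944 were hashtag doublets and 5647 negative, and 265 carried a hashtag of no labelled animal; these 3 classes were left out of comparisons. Clustering (scanpy 1.11.5) left out the members. Scrublet's own threshold called 1 barcode, so it was not used, and removing the highest 5% of scores was an alternative. UMIs summed per animal and type were tested with edgeR 4.0.16 (quasi-likelihood, TMM, filterByExpr, Benjamini-Hochberg adjustment over all genes tested). The test recovered 179 of 187 changed genes on simulated secretory counts. The simulation gave every gene the same fixed spread between animals, not estimated from these animals, and left out genes of low counts. Its recovery thus does not tell how many true differences the test would find among the members here. Alternatives were DESeq2 1.42.0, other size factors, filters, thinning, hashtag and cluster settings, and leaving out each animal. P-values set the genotype difference against the spread between animals of the same label. They cannot tell genotype from other differences between these 8 animals, such as litter. Genes given animal by animal were Mki67, Top2a, Wee1, Ezh2, the 5 replication and 5 mitosis members of the smallest p in secretory nuclei, any called, the 2 pathway genes of the smallest p in each direction and, in other types, the 2 members of the smallest p. Pcna and Mcm7 in secretory nuclei were added after their values were seen. The members and lists were chosen with earlier results of these data known.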

Additional observations from a re-analysis of the deposited data

Results flagged for a closer look

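In 36 sets of 4 animals checked for a value far from the other 3, which chance gives in about 1 of 20 sets, 2 stood out. Spc25 in secretory nuclei was at 78.2 CPM in WT animal 4, against 27.0 to 31.2 CPM in the other 3 WT animals. Mcm4 in secretory nuclei was at 7.99 CPM in labelled knockout animal 3, against 4.09 to 4.37 CPM in the other 3.

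Barcodes that carried the hashtags of more than 1 animal were used in no comparison. Among 1944 of them, 58 held 8 or more members, 2.98%, above the highest WT animal, at 0.820% of its assigned nuclei. Their median depth was 8516 UMIs.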

How the results depend on the processing

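Among the shares and the genes followed under the alternatives listed above, none turned the sign of a genotype difference. Pcna, Mcm7, Dtl, Fen1, Lin37 and E2f3, though given animal by animal, were not among the genes followed. Leaving out the tail nuclei, which is not among those alternatives, did turn it in plain CPM for Bub1, Kif23, Nusap1, Prc1 and Pcna. By edgeR, Pcna was already lower with the tail nuclei (log2 -0.05). The order of cell types by the share with 3 or more members did turn: without the 6 abundant members adipocyte, fibroblast and myoepithelial shares lay above the secretory share in 6 of 8 animals each, against 0, 1 and 1 of 8 with all members, and the myoepithelial share in 5 of 8 after thinning to 1500 UMIs. The count of members called in secretory nuclei was 0 under 10 alternatives and 0 to 1 when each animal was left out, with Spc25 called without WT animal 4. In the other types it was 1 with no filter on low counts, 1 with the replicate block and 0 to 1 when each animal was left out, in each case Spc25 in myoepithelial nuclei; the cause was not tested. The genotype difference in the secretory share with 3 or more members, 6.66 points, was 0.545 with 8 or more, 0.747 without the 6 abundant members and 4.85 to 10.3 when each animal was left out. For replication members it was 0.378 after thinning to 1500 UMIs, 4.03 with 1 or more, and 1.09 to 1.81 when each animal was left out. For mitosis members it was 3.24 to 7.41 points when each animal was left out. The secretory share of 19.3% was 1.25% thinned to 1500 and 5.82% to 3000 UMIs, 45.9% with 2 or more, 6.24% with 4 or more, 0.347% with 8 or more, 12.97% without Spc25, 6.77% without Wee1 and Ezh2, and 0.817% without the 6 abundant members. The threshold of 8 and the 6 abundant members were chosen after seeing the data. The 6 were picked by their level in secretory nuclei, which tilts the order of cell types without them against the secretory share.

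Animals of the 2 genotypes share numbers. Deviations of same-numbered animals correlated at 0.242, -0.0125, 0.246 and 0.149, and those of differently numbered animals at -0.337 to 0.379. These values do not settle whether the numbers mark pairs, and the main test did not take them as pairs. With the replicate block 0 members were called in secretory nuclei, and Spc25 in myoepithelial nuclei had an adjusted p of 0.0420 by edgeR, where 0.156% of genes were called. Depth left 16 of 35 members untested in secretory nuclei.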

Other observations

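Of 5647 barcodes with no hashtag call, 23 held 8 or more members (0.407%), at a median of 2047 UMIs. Of 265 barcodes with the hashtag that the labels tie to no animal, 1 did (0.377%). Over all assigned nuclei of every type the share was 0.820, 0.370, 0.696 and 0.650% in WT animals 1 to 4 and 0.989, 1.31, 1.28 and 0.703% in labelled knockout animals 1 to 4, with overlap.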
